A study of Mus musculus with 6 samples.

Results

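The genes described here are 28 genes of cholesterol supply, taken by symbol from the 54532 genes of the deposited expression table. They comprise 18 enzymes from acetyl-CoA to cholesterol, kept in pathway order, 5 genes that control the sterol response and 5 genes that carry, export or regulate uptake of sterols. All 28 were found under 1 identifier each, all are protein-coding, and all passed the filter on low values. The RNA came from whole mouse testes at postnatal day 9, with 3 wild-type libraries and 3 libraries labelled Ppp6r3 cKO, a conditional knockout. Ppp6r3 encodes a subunit that guides protein phosphatase 6. The labels name no Cre line, no deleted exon and no cell type of deletion, and they give no agent or treatment. They do not state whether the libraries of a group came from different mice, so the tests measure the spread between libraries, which may be technical.

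Cholesterol is built from acetyl-CoA through mevalonate and isoprenoid units to squalene, which is closed into lanosterol and then trimmed and reduced to cholesterol. The pathway is run by SREBP transcription factors, which are held in the endoplasmic reticulum by INSIG proteins when sterols are plentiful and are escorted by SCAP to be cut and released when sterols are scarce. Oxysterols act the other way through the liver X receptors (LXR), which switch on export of cholesterol. In the testis cholesterol is the precursor of Leydig cell androgens, Sertoli cells handle it while clearing germ cell remnants, and lanosterol-derived intermediates accumulate in germ cells as meiosis-activating sterols.

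Expression was deposited as FPKM, which counts fragments relative to exon length and library size. Levels can be compared between genes only as far as those lengths fit the transcripts expressed. Whole fragments recovered from the FPKM steps summed to 15798452 to 16550817 per library. Ppp6r3 itself stood at 21 ± 0.257 FPKM in wild-type testis and 15.4 ± 0.458 FPKM in Ppp6r3 cKO (SD, n = 3 per group), a log2 fold change of -0.45 (limma adjusted p = 0.000695). Markers of the labelled tissue were present: the summed level of 12 Sertoli genes was 3294 to 3462 FPKM over the 6 libraries, and none of these genes was at 0. Over 17658 genes tested with limma, 2743 (15.5%) passed an adjusted p of 0.05. One library stood apart by base composition: Ppp6r3 cKO replicate 1 deviated by a median of -0.111 (log2) in the 10% of genes lowest in GC and by 0.126 in the 10% highest, so values without it are given where it matters.

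Of the 28 genes, 6 rose in Ppp6r3 cKO, 1 fell and 21 did not pass. The 6 that rose are 21.4% of the set, where 7.67% of all tested genes rose, and the 1 that fell is 3.57%, where 7.86% of all tested genes fell. The median log2 fold change of the set was 0.01, against 0.0027 over all genes tested. The groups did not overlap in 13 of the 28 genes (10 higher and 3 lower in Ppp6r3 cKO), or 35.7% higher and 10.7% lower, against 18.8% and 18.2% of all tested genes (37.0% in either direction). The changes were small, from -0.39 to 0.33 on the log2 scale. Of the 5 controlling genes 3 rose, of the 18 enzymes 2 rose (11.1%) and 1 fell (5.56%), and of the 5 transport genes 1 rose. Differences between these groups of genes were not tested.

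**Figure D1:**
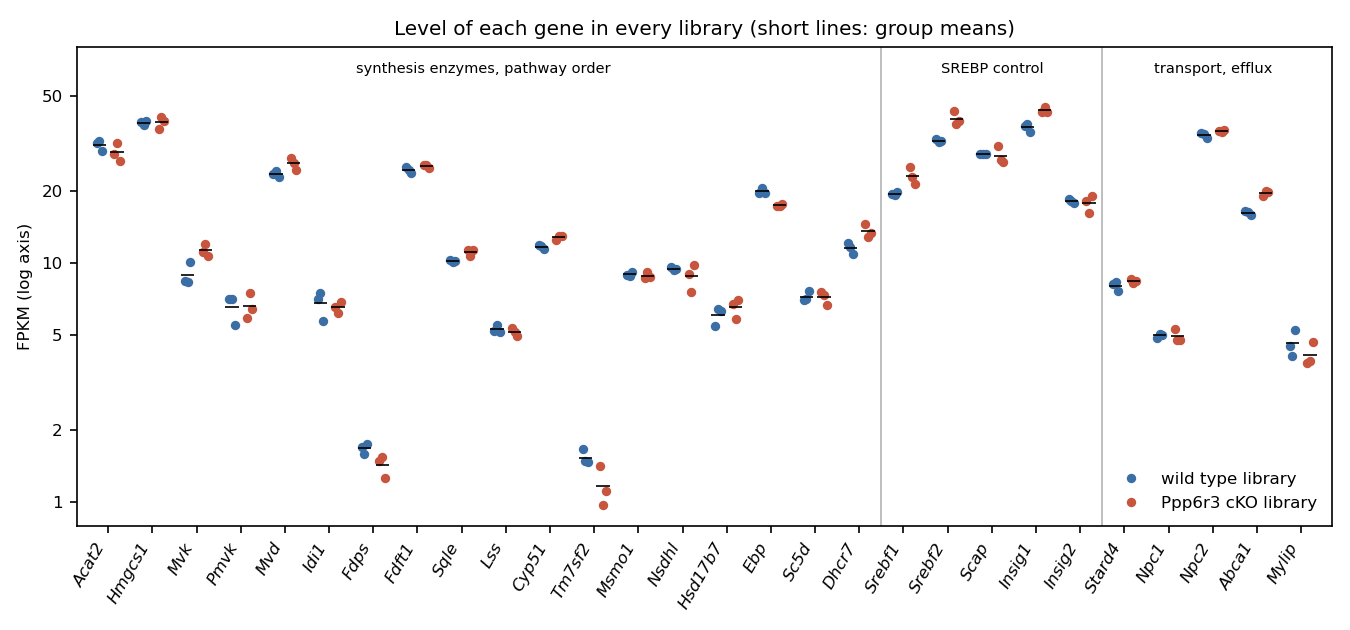
FPKM on a log axis for each of the 28 genes in each library, in pathway order, with blue points for the 3 wild-type libraries, red points for the 3 Ppp6r3 cKO libraries and short lines for group means. Means over the 6 libraries ran from 1.36 to 40.2 FPKM, and Fdps and Tm7sf2 lay far below the rest.

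The genes varied little between replicates. The pooled within-group SD of the log2 values had a median of 0.075 over the 28 genes, against 0.104 over all genes tested, with the smallest in Cyp51 (0.028) and the largest in Pmvk (0.192). Recovered fragments per gene and library ran from 86 to 5114 in the 28 genes, while a tested gene needed only 10 in 3 libraries. The spreads were not compared at matched levels. The standard errors of the log2 fold changes were largest in Tm7sf2 (0.16), Pmvk and Fdps (0.12 each) and Mylip (0.11). In this whole tissue, fewer cells of a type and less RNA per cell cannot be told apart.

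Among the controlling genes, Srebf2, Srebf1 and Insig1 rose together, while Scap and Insig2 did not pass. Srebf2, which encodes SREBP2, the main activator of cholesterol synthesis (chromosome 15, 82147181 to 82205379, GENCODE M21 on mm10), stood at 32.9, 32.2 and 32.5 FPKM in wild-type replicates 1 to 3 and at 43.4, 38 and 39.3 FPKM in Ppp6r3 cKO replicates 1 to 3. Every Ppp6r3 cKO library lay above every wild-type library, with replicate 1 the highest. The log2 fold change was 0.30 (SE 0.053, limma adjusted p = 0.00872), or 1.24 times the wild-type mean. It stayed past the threshold under each of 18 alternatives, at 0.25 without Ppp6r3 cKO replicate 1 and 0.22 after a correction for GC content and length. Srebf1, whose products SREBP1a and SREBP1c act mostly on fatty acid genes (chromosome 11, 60199089 to 60222581), was at 19.5, 19.3 and 19.8 FPKM in wild-type testis and 25.3, 22.9 and 21.5 FPKM in Ppp6r3 cKO. The groups did not overlap, and replicate 1 was again the highest. Srebf1 rose by 0.25 (SE 0.06, adjusted p = 0.0294). Its GC content is 59.4%, in a GC bin (bins hold 10% of tested genes each) whose median log2 fold change was 0.089, and after the GC and length correction Srebf1 was at 0.15 (adjusted p = 0.0384), and without Ppp6r3 cKO replicate 1 at 0.19. The Srebf1 call was lost without wild-type replicate 1, 2 or 3 (adjusted p = 0.0755, 0.093 and 0.0747) and without Ppp6r3 cKO replicate 2 (adjusted p = 0.0623).

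Insig1 encodes the retention protein that is itself switched on by SREBP, and closes the feedback loop (chromosome 5, 28071363 to 28078662). It stood at 37.4, 38 and 35.2 FPKM in wild-type testis and at 42.9, 45 and 42.6 FPKM in Ppp6r3 cKO, with all 3 Ppp6r3 cKO libraries higher. The log2 fold change was 0.24 (SE 0.044, adjusted p = 0.0111), and Insig1 passed under each of the 18 alternatives, at 0.25 without Ppp6r3 cKO replicate 1 and 0.30 after the GC and length correction. Insig2, its paralog, was at 18.1 ± 0.364 FPKM in wild-type testis and 17.8 ± 1.47 FPKM in Ppp6r3 cKO (SD, n = 3 per group), a log2 fold change of -0.03 with a 95% interval of -0.17 to 0.12. Scap, the escort, was at 28.5 FPKM in each wild-type library and at 30.9, 27 and 26.5 FPKM in Ppp6r3 cKO. Its wild-type values fell inside the Ppp6r3 cKO range, and the log2 fold change was -0.02 (95% interval -0.16 to 0.11). The summed level of the 5 controlling genes was 133.8 to 136.7 FPKM in wild-type testis and 148.9 to 160.7 FPKM in Ppp6r3 cKO.

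**Figure D2:**
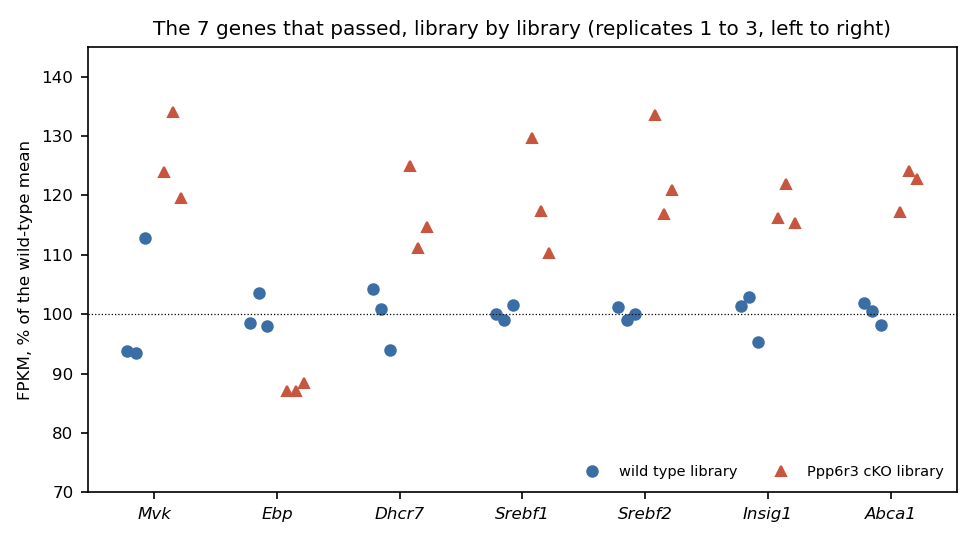
FPKM of the 7 genes that passed, in each library, as a percentage of the wild-type mean of that gene, with circles for wild type and triangles for Ppp6r3 cKO. In 6 genes all 3 triangles lie above all 3 circles, in Ebp all 3 lie below, and Ppp6r3 cKO replicate 1 is the highest point for Dhcr7, Srebf1 and Srebf2.

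The first 7 enzymes lead from acetyl-CoA to farnesyl diphosphate, and 1 of them, Mvk, rose. Mvk encodes mevalonate kinase, which adds the first phosphate to mevalonate (chromosome 5, 114444269 to 114460591, GENCODE M21 on mm10). It was at 8.4, 8.36 and 10.1 FPKM in wild-type testis and at 11.1, 12 and 10.7 FPKM in Ppp6r3 cKO. The groups were separate, but wild-type replicate 3 came close to the lowest Ppp6r3 cKO library. The log2 fold change was 0.33 (SE 0.082, adjusted p = 0.0311). The Mvk call was lost without wild-type replicate 1 or 2 (adjusted p = 0.0902 and 0.103) and without Ppp6r3 cKO replicate 1 or 2 (adjusted p = 0.063 and 0.0848). Its GC content is 58.5%, and after the GC and length correction it was at 0.31 (adjusted p = 0.0499).

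The other mevalonate enzymes did not pass. Acat2, the cytosolic thiolase that makes acetoacetyl-CoA, was at 31.3 ± 1.64 and 29.1 ± 2.56 FPKM in wild-type testis and Ppp6r3 cKO (SD, n = 3 per group), with overlapping groups. Hmgcs1, which makes HMG-CoA in the cytosol and is a classical SREBP target, was the most abundant enzyme of the set. It was at 38.7, 37.9 and 39.1 FPKM in wild-type testis and 36.4, 40.7 and 39.2 FPKM in Ppp6r3 cKO. The Ppp6r3 cKO libraries lay on both sides of the wild-type ones, and the log2 fold change was 0.01 (95% interval -0.10 to 0.12). Pmvk, the next kinase, was at 6.56 ± 0.905 and 6.61 ± 0.838 FPKM. Mvd, which removes the carboxyl group to give isopentenyl diphosphate, was at 23.5, 24.3 and 22.9 FPKM in wild-type testis and at 27.5, 26.3 and 24.5 FPKM in Ppp6r3 cKO. These groups were separate by a narrow margin, and the log2 fold change of 0.14 did not pass (adjusted p = 0.0998), though Mvd was called higher after the GC and length correction (0.14, adjusted p = 0.0379). Idi1, the isomerase that makes dimethylallyl diphosphate, was at 6.79 ± 0.94 and 6.55 ± 0.359 FPKM.

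Fdps, which joins these units into farnesyl diphosphate, was listed at 1.69 ± 0.077 FPKM in wild-type testis and 1.44 ± 0.149 FPKM in Ppp6r3 cKO. The 3 Ppp6r3 cKO values lay below the 3 wild-type values, and the log2 fold change of -0.22 did not pass (adjusted p = 0.259). Its level is uncertain because the genome holds near copies of it. The processed pseudogene Gm3571 matches Fdps transcripts over 1062 bases at 98.9% identity and was listed at a mean of 10.01 FPKM in wild-type testis and 8.62 FPKM in Ppp6r3 cKO, above Fdps itself. Gm3571, named after its values were seen, was at -0.22 on the log2 scale (adjusted p = 0.0725). Fdps also shares 1124 exon bases, 26.7% of its exons, with the same-strand gene Gm43738, which was listed at 0. How the authors' counting divided fragments between these loci is not given in the sources used here. Acat2 likewise has a near copy, Acat3 (97.7% identity over 1477 bases), listed at a mean of 2.5 FPKM, and shares a stretch of 445 bases at 98.7% identity with Tcp1, listed at a mean of 75.4 FPKM.

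**Figure D3:**
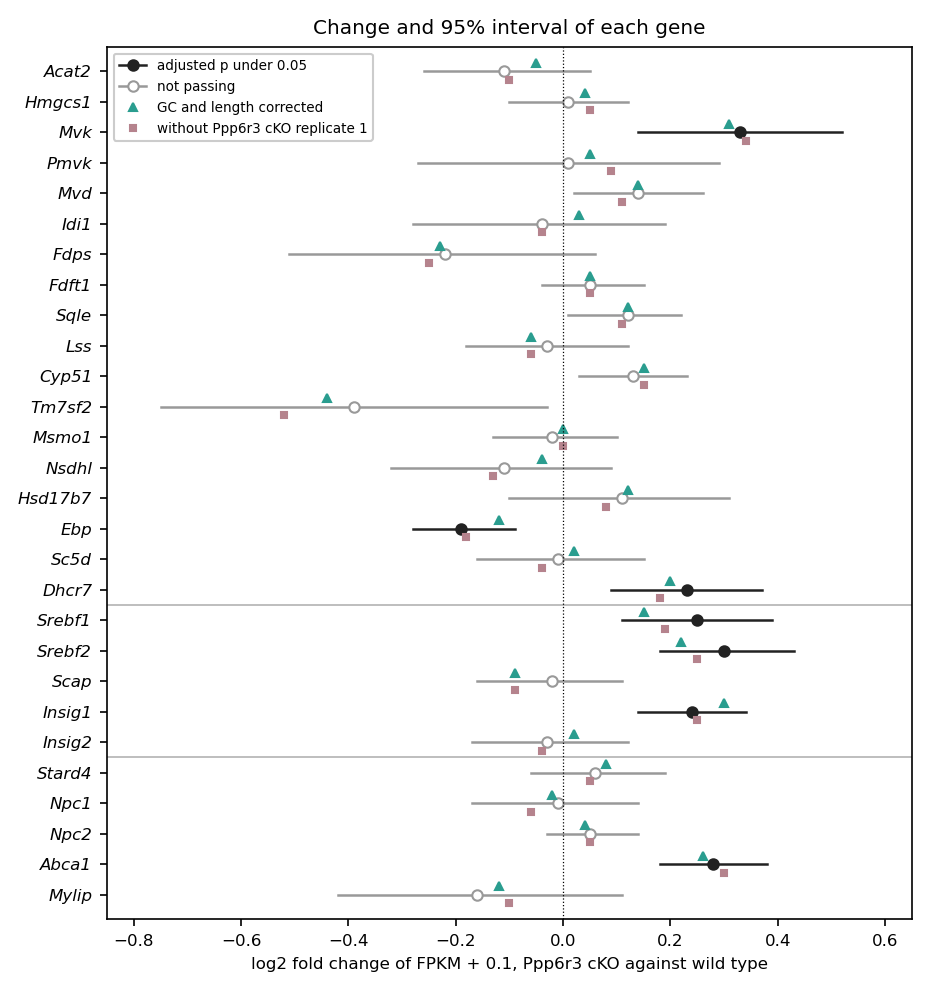
Log2 fold change of each gene, Ppp6r3 cKO against wild type, with its 95% interval as a bar, filled where the adjusted p was under 0.05, and with the value after GC and length correction (triangles) and without Ppp6r3 cKO replicate 1 (squares). All 7 filled genes keep clear of 0 in all 3 displays, as do Mvd, Sqle, Cyp51 and Tm7sf2, which did not pass. Tm7sf2 has the widest interval.

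Fdft1, Sqle and Lss carry farnesyl diphosphate to lanosterol, and none of them passed. Fdft1, squalene synthase, was at 24.5 ± 0.635 FPKM in wild-type testis and 25.4 ± 0.433 FPKM in Ppp6r3 cKO (SD, n = 3 per group), and 18.3% of its exon bases overlap the opposite-strand gene Ctsb. Sqle, the oxygen-requiring squalene epoxidase and a rate-limiting step, was at 10.3, 10.1 and 10.2 FPKM in wild-type testis and at 11.3, 10.7 and 11.3 FPKM in Ppp6r3 cKO. All 3 Ppp6r3 cKO values were higher, yet the log2 fold change of 0.12 did not pass (95% interval 0.01 to 0.22, adjusted p = 0.119). Lss, which closes the sterol rings, had a log2 fold change of -0.03 (95% interval -0.18 to 0.12).

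Of the 8 enzymes after lanosterol, Dhcr7 rose and Ebp fell. Dhcr7 catalyses the last step to cholesterol through 7-dehydrocholesterol (chromosome 7, 143823145 to 143848410). It stood at 12.1, 11.7 and 10.9 FPKM in wild-type testis and 14.5, 12.9 and 13.3 FPKM in Ppp6r3 cKO, with separate groups and replicate 1 the highest. The log2 fold change was 0.23 (SE 0.062, adjusted p = 0.0429). This call was the least stable of the 7: Dhcr7 did not pass without any single library (adjusted p from 0.0504 without Ppp6r3 cKO replicate 2 to 0.132 without wild-type replicate 3). Ebp encodes the isomerase that moves the ring double bond before the final reductions (chromosome X, 8185329 to 8193512). It was at 19.7, 20.7 and 19.6 FPKM in wild-type testis and at 17.4, 17.4 and 17.7 FPKM in Ppp6r3 cKO, with all 3 Ppp6r3 cKO libraries lower and close together. Ebp fell by 0.19 on the log2 scale (SE 0.042, adjusted p = 0.0221). After the GC and length correction Ebp was at -0.12 and did not pass (adjusted p = 0.066). The Ebp call was also lost without wild-type replicate 1, 2 or 3 (adjusted p = 0.0546, 0.0896 and 0.0559) or Ppp6r3 cKO replicate 2 (adjusted p = 0.0598).

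Cyp51, the lanosterol demethylase whose product is the meiosis-activating sterol of the follicle, was at 11.9, 11.8 and 11.5 FPKM in wild-type testis and 12.5, 13 and 13 FPKM in Ppp6r3 cKO. The groups were separate, and the log2 fold change of 0.13 did not pass (adjusted p = 0.084), while after the GC and length correction it was called at 0.15 (adjusted p = 0.0286). Tm7sf2, the reductase that acts next and gives the testis form of that sterol, was at 1.67, 1.49 and 1.48 FPKM in wild-type testis and at 1.42, 0.973 and 1.12 FPKM in Ppp6r3 cKO. It had the most negative log2 fold change of the 28 genes, -0.39, but a 95% interval from -0.75 to -0.03 and an adjusted p of 0.135. Voom on recovered fragments called Tm7sf2 lower (-0.41, adjusted p = 0.0394), in a test that called 23.1% of all genes (12.0% higher and 11.1% lower). Tm7sf2 shares 532 exon bases, 12.1% of its exons, with its same-strand neighbour Vps51. Msmo1, Nsdhl, Hsd17b7 and Sc5d, which remove the methyl groups and desaturate the ring, had log2 fold changes from -0.11 to 0.11, overlapping groups and adjusted p values from 0.431 to 0.966. The summed level of the 18 enzymes was 229.7 to 236.9 FPKM in wild-type testis and 234.4 to 241.9 FPKM in Ppp6r3 cKO, ranges that overlap.

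Of the 5 transport genes, Abca1 rose. ABCA1 is the membrane pump that loads cholesterol onto apolipoprotein particles and is a classical LXR target (chromosome 4, 53030787 to 53159895). It was at 16.5, 16.3 and 15.9 FPKM in wild-type testis and 19, 20.1 and 19.9 FPKM in Ppp6r3 cKO. The Ppp6r3 cKO libraries were all higher, with replicate 1 the lowest of them. The log2 fold change was 0.28 (SE 0.043, adjusted p = 0.00565), the smallest adjusted p of the 28 genes, and it passed under each of the 18 alternatives, at 0.30 without Ppp6r3 cKO replicate 1. Mylip, an LXR target whose product marks lipoprotein receptors for degradation, was at 4.51, 4.08 and 5.27 FPKM in wild-type testis and 3.83, 3.89 and 4.68 FPKM in Ppp6r3 cKO. Those groups overlapped, and its log2 fold change of -0.16 did not pass (95% interval -0.42 to 0.11). Npc1 and Npc2, which release cholesterol from late endosomes, were at -0.01 (95% interval -0.17 to 0.14) and 0.05 (-0.03 to 0.14). Stard4, a soluble sterol carrier and SREBP2 target, was at 8.05 ± 0.35 and 8.42 ± 0.161 FPKM (SD, n = 3 per group), with overlapping groups.

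Promoters of 6 of the 7 genes that passed, and of the SREBP target Hmgcs1, which did not pass, are printed to show which of the known control elements lie close to their starts. RefSeq promoter windows on GRCm38.p6, the assembly also called mm10, run from 250 bases before to 50 bases after a start and were matched for 23 of the 28 genes (31 windows). Fdps, Fdft1, Sqle, Stard4 and Npc1 had no entry. Stretches before the start are given 5′ to 3′ on the strand of the gene, and capitals mark matches to 5 motifs searched on both strands: CACNCCAC (sterol regulatory element core), CCAAT (the box bound by NF-Y), CACGTG (E-box), GGGCGG (GC box, bound by Sp1) and an LXR element, modelled on the known one of Abca1, so that its match there is not independent. No 2 matches overlapped in these windows. Dhcr7, which is not printed, has 3 windows, with matches to the E-box, the CCAAT box and the GC box and none to the sterol regulatory element core or the LXR element.
Srebf2, chr15:82147019-82147180, plus strand, 250 to 89 bases before the start: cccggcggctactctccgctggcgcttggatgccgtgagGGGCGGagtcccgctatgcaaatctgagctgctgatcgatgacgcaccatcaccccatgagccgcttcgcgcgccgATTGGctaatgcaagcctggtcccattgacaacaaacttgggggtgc
Srebf1, chr11:60210472-60210671, minus strand, 200 to 1 bases before an internal start: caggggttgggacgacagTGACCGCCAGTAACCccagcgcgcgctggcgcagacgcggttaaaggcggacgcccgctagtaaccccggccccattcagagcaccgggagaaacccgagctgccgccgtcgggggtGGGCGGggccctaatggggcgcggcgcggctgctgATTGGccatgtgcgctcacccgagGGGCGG
Insig1, chr5:28071242-28071362, plus strand, 170 to 50 bases before the start: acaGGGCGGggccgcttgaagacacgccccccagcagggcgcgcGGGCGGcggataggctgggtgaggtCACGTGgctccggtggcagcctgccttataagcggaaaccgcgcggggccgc
Insig1, chr5:28071382-28071411, plus strand, the last 30 bases before the start, which lie in a GENCODE exon: gggcgcggtacgtgtagtgtcGTGGCGTGt
Abca1, chr4:53159896-53160045, minus strand, 150 to 1 bases before the start: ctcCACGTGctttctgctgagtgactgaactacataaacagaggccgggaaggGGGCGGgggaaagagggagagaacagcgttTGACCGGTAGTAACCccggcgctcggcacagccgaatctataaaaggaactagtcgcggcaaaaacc
Mvk, chr5:114444119-114444268, plus strand, 150 to 1 bases before the start: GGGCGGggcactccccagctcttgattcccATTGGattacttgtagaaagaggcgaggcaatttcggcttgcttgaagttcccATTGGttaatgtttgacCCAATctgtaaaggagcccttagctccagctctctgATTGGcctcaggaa
Ebp, chrX:8193513-8193662, minus strand, 150 to 1 bases before the start: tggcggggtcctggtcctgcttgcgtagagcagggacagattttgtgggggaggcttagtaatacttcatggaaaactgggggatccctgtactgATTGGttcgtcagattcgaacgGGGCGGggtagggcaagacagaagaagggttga
Hmgcs1, chr13:119690151-119690350, plus strand, 200 to 1 bases before the start: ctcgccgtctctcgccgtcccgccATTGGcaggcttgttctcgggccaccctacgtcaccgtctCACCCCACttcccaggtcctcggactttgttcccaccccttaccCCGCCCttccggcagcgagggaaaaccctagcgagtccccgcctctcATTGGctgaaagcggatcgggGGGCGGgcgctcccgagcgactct

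The LXR element was found in 2 of the 31 windows. They are those of Abca1 (67 to 53 bases before the start) and of an internal start of Srebf1 (182 to 168 bases before it). Such matches were in 0.207% of all 32851 windows and 0.153% of the windows of tested genes. Both genes were among those that rose, and a part of the element in this was not tested. Levels are per gene, so they do not show which start of Srebf1 was used. Srebf1 has several windows, and the printed one was picked because it holds the LXR element. The other Srebf1 windows have no match to it. The sterol regulatory element core was found in 3 windows, of Acat2, Hmgcs1 and Insig1, or 9.68%, against 6.24% of all windows and 6.57% of the windows of tested genes. Of these 3 genes Insig1 rose, and Acat2 and Hmgcs1 did not pass. The CCAAT box was found in 21 of the 31 windows (67.7%, against 37.4% of all windows and 37.4% of those of tested genes), with 4 in the printed stretch of Mvk. The GC box was found in 26 (83.9%, against 35.7% and 59.2%) and the E-box in 7 (22.6%, against 7.15% and 9.53%). Several windows of 1 gene can share bases. A match is a run of letters, not a shown binding site.

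The neighbouring lists are read against the 7.67% of all tested genes that rose and the 7.86% that fell. Of 13 genes of SREBP processing, its partner factors and sterol-regulated degradation, 2 rose, 1 fell and 10 did not pass (15.4% and 7.69% of the list, median 0.06). Mbtps1, the protease that makes the first cut in SREBP, rose from 32.9 ± 0.449 FPKM to 37.5 ± 0.369 FPKM (SD, n = 3 per group), by 0.19 on the log2 scale (adjusted p = 0.0118, lost without wild-type replicate 2 or 3, at 0.0513 and 0.0536). Of the NF-Y subunits Nfya rose by 0.28 (adjusted p = 0.0183) and Nfyc fell by 0.20 (adjusted p = 0.0339). The Nfya call was lost without 3 of the 6 libraries (wild-type replicate 2 or 3 and Ppp6r3 cKO replicate 3). The Nfyc call was kept without Ppp6r3 cKO replicate 1 and lost without any other library. Of 12 genes of the isoprenoid branches, 1 fell (8.33%, close to the share over all genes) and 11 did not pass. Coq2, which joins the ring and the tail of coenzyme Q, fell by 0.25 (adjusted p = 0.0227, lost without wild-type replicate 1, 2 or 3).

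Of 17 fatty acid synthesis genes, many of them SREBP1 targets, 16 were tested, and 3 rose, 2 fell and 11 did not pass (18.8% rose and 12.5% fell, median 0.09). Acss2, which makes acetyl-CoA from acetate in the cytosol, showed the largest change of these lists. It went from 10.6, 10.5 and 10.1 FPKM to 6.41, 6.43 and 6.02 FPKM, well apart in all libraries (log2 fold change -0.72, adjusted p = 0.000284, -0.74 to -0.65 over the alternatives). Acly, which makes the same precursor from citrate, rose by 0.17 (adjusted p = 0.0132, lost without wild-type replicate 2 or 3). Fasn, fatty acid synthase, rose by 0.24 (adjusted p = 0.00744), or 0.14 after the GC and length correction, where it still passed. Acaca, the carboxylase that commits acetyl-CoA to fatty acids, fell by 0.20 (adjusted p = 0.0229, lost without any 1 wild-type library or Ppp6r3 cKO replicate 3).

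Of 14 genes of the LXR and oxysterol list, 11 were tested, of which 3 rose and 8 did not pass (27.3% rose, median -0.01), with no gene falling. Apoe, an acceptor of exported cholesterol, went from 94.5, 95.1 and 95.6 FPKM in wild-type testis to 113, 110 and 106 FPKM in Ppp6r3 cKO, without overlap (log2 fold change 0.21, adjusted p = 0.00936). Smpdl3a, a phosphodiesterase gene induced by LXR in macrophages, rose by 0.51 (adjusted p = 0.00725). Abcg1, another efflux pump, rose by 0.33 (adjusted p = 0.0168, but 0.0648 and 0.0514 when replicate 2 of wild type or of Ppp6r3 cKO was left out). The receptors, named after their values were seen, did not pass: Nr1h2 was at -0.01, and Nr1h3, at 1.31 FPKM in wild-type testis, was at -0.44 (adjusted p = 0.199). Of 19 genes of uptake, sterol esters and transport, 2 rose, 1 fell and 16 did not pass (10.5% and 5.26%, near the shares over all genes, median 0.03). Lrp1, an endocytic receptor for lipoprotein remnants, rose by 0.37 (adjusted p = 0.0091), Gramd1b, a sterol carrier between membranes, rose by 0.24 (adjusted p = 0.00908), and Soat1, which makes cholesteryl esters, fell by 0.24 (adjusted p = 0.00802). These 3 passed under each of the 18 alternatives.

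**Figure D4:**
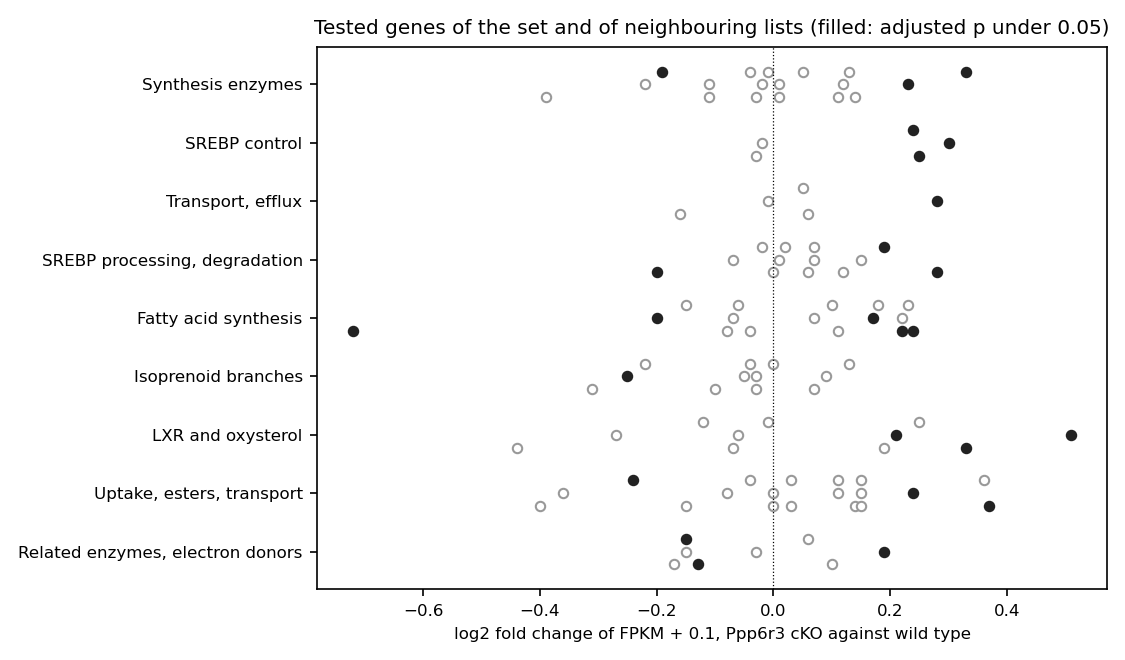
Log2 fold change of each tested gene of the set (top 3 rows) and of the neighbouring lists, with filled circles for an adjusted p under 0.05 and vertical offsets only to separate points. Filled points stand on both sides of 0 in 5 rows, to the right in the rows of SREBP control, transport and efflux, and LXR, and to the left in that of isoprenoids. Acss2 is the point at -0.72.

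Some markers of cell types moved between the groups as well. Their counts are read against the 7.67% of all tested genes that rose and the 7.86% that fell. Of 11 macrophage genes 5 rose and none fell, with a summed level of 122.8 to 129.2 FPKM in wild-type testis and 162.4 to 175.4 FPKM in Ppp6r3 cKO. Of 11 endothelial genes 7 rose and none fell (51.54 to 56.69 against 76.6 to 82.69 FPKM), and of 7 stromal genes 5 rose and none fell (479.4 to 487.6 against 571.5 to 594.6 FPKM). Of 9 Leydig genes 2 rose and none fell (271.5 to 281.6 against 307.1 to 321 FPKM), and all 14 meiotic genes fell (402.2 to 408.2 against 201.8 to 212 FPKM). Of 9 markers of undifferentiated spermatogonia 4 rose and none fell (67.1 to 70.63 against 83.49 to 85.62 FPKM), of 9 general germ cell markers 3 fell and none rose (495.6 to 509.9 against 390.7 to 425.6 FPKM), and of the 12 Sertoli genes 2 rose and 2 fell. The shares that rose were 45.5% of macrophage, 63.6% of endothelial, 71.4% of stromal, 22.2% of Leydig and 44.4% of undifferentiated spermatogonia markers. The shares that fell were 100% of meiotic and 33.3% of general germ cell markers, and 16.7% of Sertoli markers went each way. None of these markers was at 0 in all libraries. Abca1, Abcg1, Apoe and Lrp1 are well known from macrophages and stroma, and the part of these cells in the changes of the 28 genes was not tested.

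**Figure D5:**
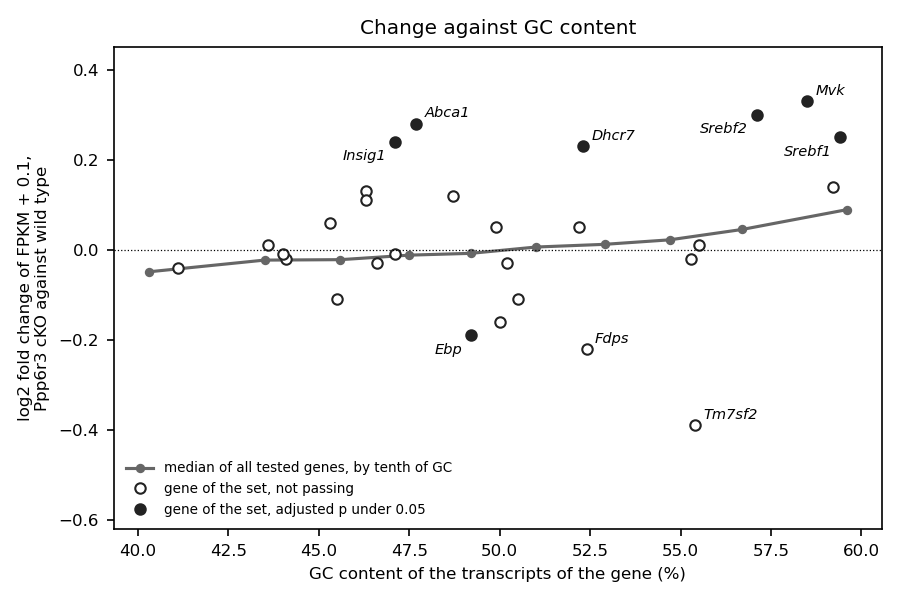
Log2 fold change against the GC content of the transcripts for the 28 genes (circles, filled where the adjusted p was under 0.05), with the median of all tested genes in each GC bin as a grey line. The line runs from -0.049 to 0.089, Mvk, Srebf1 and Srebf2 lie at its high end, and Insig1 and Abca1 lie at middle GC.

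GC content differed among the genes that passed, and its part in the changes was not tested. Mvk (58.5%), Srebf1 (59.4%) and Srebf2 (57.1%) are rich in GC, and the median log2 fold changes of all tested genes in their GC bins were 0.089, 0.089 and 0.045. The GC and length correction moved Mvk from 0.33 to 0.31, Srebf1 from 0.25 to 0.15 and Srebf2 from 0.30 to 0.22. Insig1 (47.1%) and Abca1 (47.7%) stand in a bin with a median of -0.012, and Dhcr7 (52.3%) in one with 0.012. After the GC and length correction 8 of the 28 genes passed, all higher, where 19.0% of all tested genes did (10.1% higher and 8.85% lower). Ebp was no longer among them, and Mvd and Cyp51 were.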

How the data were processed

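RNA-seq of whole testis was compared between 3 wild-type and 3 Ppp6r3 cKO libraries, grouped by the labels. The authors deposited 1 table of FPKM per gene and library, and the submitters' processing notes name HISAT2 2.0.5, DESeq2 and mm10. Its strand setting and annotation are not given in the sources used here. The deposited FPKM had already been scaled by median-ratio size factors. Of 32589 genes above 0, 31625 (97.0%) gave whole fragments with GENCODE M21 exon lengths (tolerance 0.01), and 964 gave them with another length, among them Tm7sf2 and Npc1. Recovered fragments summed to 15798452 to 16550817 per library.

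The deposited FPKM were tested as log2(FPKM + 0.1) with limma 3.58.1 in R 4.3.3 (trended, robust, 2-sided), which understates changes of low genes. The test covered 17658 genes, those reaching 10 recovered fragments in 3 or more libraries, with Benjamini-Hochberg adjustment over all of them and a threshold of 0.05. Log2 fold changes are Ppp6r3 cKO over wild type. All 28 genes were described, and from each neighbouring list the genes that passed were named by smallest adjusted p, up to 4. One gene that this rule names is not reported here. The 28 genes and the lists were chosen with earlier results of these data known. Alternatives changed the pseudocount, filter, scaling, GC and length correction, test (voom on recovered fragments), replicate block and libraries. Median-ratio scaling, 1 of the 18, gave the same factor (1.0037) for every library, so it nearly repeats the main fit. Scaling to total fragments was added after the data were seen. The test was checked on simulated data. Promoters are RefSeq's, on GRCm38.p6.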

Additional observations from a re-analysis of the deposited data

How the results depend on the processing

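Over 18 alternatives no gene that passed changed direction, and Srebf2, Insig1 and Abca1 passed under each. Of the 28 genes 7 passed, and this count was 4 without the filter on low values, 2 at an adjusted p of 0.01, 3 with GC and length correction plus replicate block, and 3 to 6 when each library was left out in turn. The 3 synthesis enzymes that passed became 1, 0 and 0 under the same 3 settings and 0 to 2 without 1 library. Over all genes, 2743 became 1508 without the filter, 889 at an adjusted p of 0.01 and 1265 to 2455 without 1 library. With GC and length correction plus replicate block, 2413 of all genes still passed. The median log2 fold change of the 28 genes, 0.009, was 0.043 with the GC and length correction, 0.043 with that correction plus the block, and 0.021 to 0.048 without 1 library. Of the genes that did not pass, the signs of Hmgcs1, Pmvk, Idi1, Msmo1, Sc5d, Scap, Insig2 and Npc1 changed under some alternative. Voom called 4083 genes and 8 of the 28.

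Same-numbered libraries showed no shared deviation (correlations of 0.0143, -0.00452 and -0.0073). This cannot show whether the samples were paired, and the labels do not state a pairing. With the replicate block 2197 genes and 6 of the 28 passed, and Mvk did not (adjusted p = 0.062). With 3 libraries a group, precision is lowest for Tm7sf2, Pmvk, Fdps and Mylip. The causes of these shifts were not tested.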
